A study of Mus musculus with 8 samples.

Results

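The 10 genes described here are Jun, Junb, Jund, Fos, Fosb, Fosl1, Fosl2, Atf3, Mapk8 and Dusp10, taken by symbol from a table of 13420 genes that lists all 10 of them. They encode subunits of the transcription factor AP-1 and parts of the JNK pathway that acts on it. Their transcripts were measured in 8 bulk RNA libraries of sorted mouse small intestinal organoid cells, with 2 libraries in each of 4 groups. Organoids are epithelial cultures grown in a basement membrane gel, here in medium with EGF, Noggin and R-spondin1. Wild-type (WT) cells were labelled mTmG, a reporter that gives membrane tdTomato, on a C57BL/6 background. Cancer cells, on a C57BL/6 (F6) background, carried Villin-CreERT2 and, among the labelled alleles, Apc fl/fl and fl/R172H at Tr53, where Cre recombinase is driven by an intestinal epithelial promoter and switched on by tamoxifen, and they were marked with Dendra2. Both cell types were grown either alone (pure) or aggregated at 2 parts WT to 1 part cancer (mixed), and live cells were sorted on either color 3 days after mixing. Libraries are named by well. Pure WT cells are A01 and A05, mixed WT cells A02 and A06, pure cancer cells A03 and A07, and mixed cancer cells A04 and A08. The labels do not say whether the 2 libraries of a group came from separate cultures or mice, so the p-values below measure the spread between these libraries, which may be technical.

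AP-1 is a dimer of a Jun protein (Jun, JunB or JunD) with a Fos protein (Fos, FosB, Fosl1 or Fosl2), an ATF protein such as Atf3, or another Jun protein. It binds short palindromic DNA sites near its target genes. JNK, encoded by Mapk8 and its relatives, is a kinase of the stress-activated MAPK family that phosphorylates Jun on its N-terminal domain, and Dusp10 is a phosphatase that removes the activating phosphates from JNK and p38. Jun, Fos and Atf3 are textbook immediate-early genes, whose transcripts rise within minutes of growth factor or stress signals, while JNK activity itself is set by phosphorylation and is not read by RNA levels. The study followed JNK signaling in WT cells that are outcompeted by cancer cells, which is the question behind the comparison of mixed with pure WT cells.

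Jun, Junb and Fos are the members whose start sites are shown here, because Jun and Fos are the founding AP-1 subunits and Junb was the member called in a comparison. Each line gives the 250 bases before the RefSeq start site (build GRCm38.p6), 5′ to 3′ on the gene's own strand. Capitals mark matches on either strand to TGACTCA, TGACGTCA and TGACATCA (forms of the AP-1 and ATF site), to TATAAA, to the CArG box and to CCAAT.
Jun, chr4:95052223-95052472, minus strand: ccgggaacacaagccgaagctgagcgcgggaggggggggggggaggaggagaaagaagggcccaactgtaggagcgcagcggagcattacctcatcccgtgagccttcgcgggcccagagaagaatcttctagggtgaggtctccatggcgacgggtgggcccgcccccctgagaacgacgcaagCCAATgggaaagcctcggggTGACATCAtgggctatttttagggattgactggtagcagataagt
Junb, chr8:84978749-84978998, minus strand: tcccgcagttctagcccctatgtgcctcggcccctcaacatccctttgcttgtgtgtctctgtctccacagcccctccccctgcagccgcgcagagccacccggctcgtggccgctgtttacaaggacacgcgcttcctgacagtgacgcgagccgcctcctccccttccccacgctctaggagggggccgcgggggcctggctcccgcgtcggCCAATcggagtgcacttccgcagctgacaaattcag
Fos, chr12:85473640-85473889, plus strand: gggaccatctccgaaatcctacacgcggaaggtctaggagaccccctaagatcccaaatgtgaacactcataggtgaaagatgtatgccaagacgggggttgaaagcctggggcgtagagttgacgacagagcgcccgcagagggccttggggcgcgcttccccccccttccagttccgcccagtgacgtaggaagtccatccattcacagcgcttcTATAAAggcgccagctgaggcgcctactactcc
The Jun window holds TGACATCA from 45 to 38 bases before the start and CCAAT from 65 to 61 bases before it. The Junb window holds CCAAT alone among these, from 36 to 32 bases before the start. The Fos window holds TATAAA from 33 to 28 bases before the start. Of 32851 promoter windows of this length, 4.46% held TGACTCA, 1.55% TGACGTCA, 2.93% TGACATCA, 1.47% a CArG box, 12.4% TATAAA and 33.9% CCAAT. RefSeq entries matched 9 of the members, Fosl1 being unmatched, and Dusp10 was the only other matched member with TGACATCA, from 157 to 150 bases before its start. A match of letters is a description of the window and not of binding.

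Depth set how far each member could be read. Libraries held from 73109 reads (mixed WT A02) to 4733121 reads (mixed cancer A04). The floor used for a count of 0 was 3 reads, about its 1-sided 95% upper limit. It corresponds to between 39.3 CPM in A02 and 0.587 CPM in A04. In A02, 26.1% of the 5264 genes that entered the test had no read. CPM here are a library's counts scaled to 1000000 reads on tested genes after TMM normalization. CEL-Seq counts the 3′ end of a transcript, so values were not divided by length and levels are compared between libraries, not between genes. Reads include amplification copies, so all intervals and floors cover counting error only. Jun, Junb, Jund, Fos and Fosl2 had enough reads to be tested, and Fosb, Fosl1, Atf3, Mapk8 and Dusp10 did not. All 7 epithelial markers were present in every group (summed 4739 to 16058 CPM), whereas of the immune, fibroblast and endothelial markers only Cd68, a lysosomal protein abundant in macrophages, exceeded 1 read in a group, with 0 to 68.8 CPM in cancer libraries and at most 2.27 CPM in WT libraries. The 5 Wnt targets listed as raised by Apc loss, Axin2, Nkd1, Notum, Ascl2 and Sp5, gave an unequal check of the cell labels. Their sum was 298 to 324 CPM in pure WT, 39.3 to 86.1 CPM in mixed WT, 332 to 404 CPM in pure cancer and 484 to 721 CPM in mixed cancer libraries. Nkd1 and Notum were higher in every cancer library (114 to 283 and 26.2 to 98.8 CPM) than in any WT library (at most 13.1 and 4.53 CPM), whereas Axin2 was at 76.0 and 155 CPM in pure WT and at 52.5 and 68.8 CPM in pure cancer libraries. The count of 0 for Notum in A02 allows up to 39.3 CPM, which is above the 26.2 CPM of cancer library A03.

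Junb encodes an AP-1 subunit known to form weaker activators than Jun in many settings, and it was the only member called in any comparison. Its level was 203 and 115 CPM in pure WT libraries A01 and A05 (222 and 205 reads). In mixed WT cells it was 197 CPM in A02, from 15 reads, and 759 CPM in A06, from 335 reads. In pure cancer cells it was 467 CPM in A03 and 1030 CPM in A07 (89 and 344 reads). In mixed cancer cells it was 680 CPM in A04 and 913 CPM in A08 (3477 and 176 reads). The 4 cancer libraries therefore all lay above both pure WT libraries, and of the mixed WT libraries A06 lay among the cancer libraries while A02 lay between the pure WT ones. Mean levels were 159 ± 62.2 CPM for pure and 478 ± 398 CPM for mixed WT cells, and 748 ± 398 CPM for pure and 797 ± 164 CPM for mixed cancer cells (SD, n = 2 each).

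**Figure D1:**
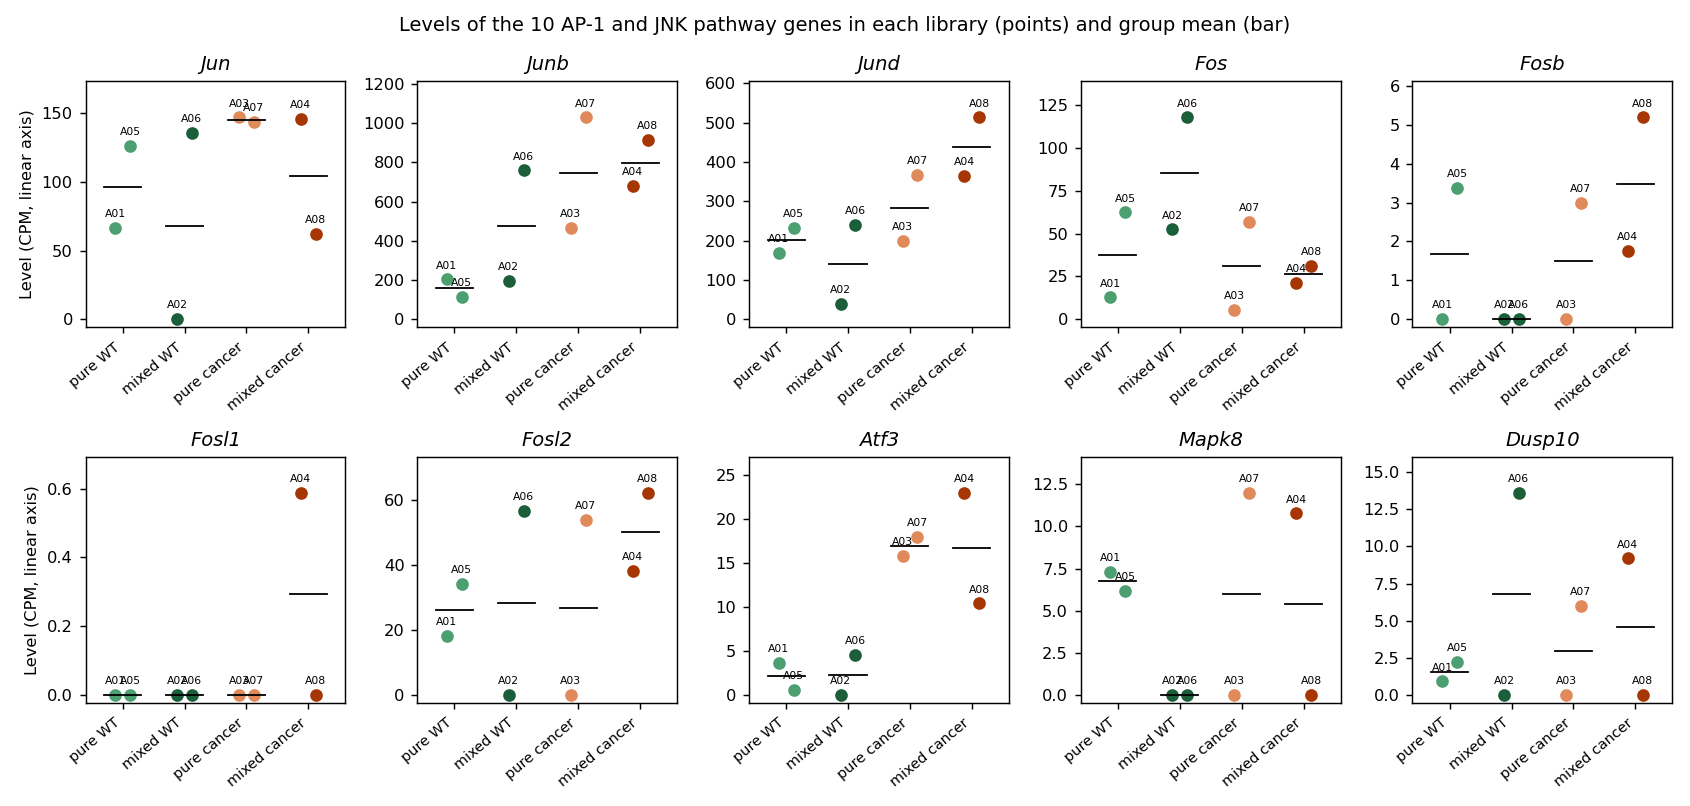
Level of each of the 10 genes (CPM, linear axis, a separate scale per gene) in each library, with points labelled by well and colored by group and bars at the mean of the 2 libraries. Junb points of the 4 cancer libraries lie between 467 and 1030 CPM, above the pure WT points at 115 and 203 CPM, and the mixed WT points stand far apart at 197 and 759 CPM.

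Pure cancer cells had 4.73-fold more Junb than pure WT cells, a log2 fold change of 2.24 (SE 0.548, 95% interval 1.11 to 3.38, edgeR quasi-likelihood adjusted p = 0.00840). In this comparison 9.95% of all tested genes were called, and 1 of the 5 tested members was. The call was lost without pure WT library A05 (log2 fold change 2.00, adjusted p = 0.0548) and without pure cancer library A07 (1.45, adjusted p = 0.0987), and held in the other 13 alternatives. Enterocyte, goblet, enteroendocrine and stem cell markers were lower in pure cancer cells, whereas Paneth cell markers overlapped. The Paneth sum (3 genes) was at 679 to 1470 CPM in pure WT and at 493 to 832 CPM in pure cancer libraries. Within it Defa24 was at 0 in pure cancer cells, and Mmp7 was higher there. Summed enterocyte markers (5 genes) were at 637 to 1150 CPM in pure WT and at 2.99 to 10.5 CPM in pure cancer libraries, with Fabp1, Fabp2, Apoa1 and Sis at 0 there, goblet markers (3 genes) were at 2043 to 2162 against 8.98 to 10.5 CPM, with Muc2 at 0, and the 3 enteroendocrine markers were at 153 to 210 CPM against 0. Stem cell markers (4 genes) were at 342 to 424 against 36.7 to 65.8 CPM, with Olfm4 and Smoc2 at 0. The part of these markers in the Junb difference was not tested, and in bulk RNA fewer cells of a type and less RNA per cell cannot be told apart.

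In WT cells upon mixing, Junb had a log2 fold change of 1.66 (SE 0.543, 95% interval 0.54 to 2.78), which did not pass the threshold after adjustment over all genes (edgeR adjusted p = 0.216). No member was called (0 of 5), where 0.741% of all genes were, and 1 member had an unadjusted p under 0.05, where 9.67% of all genes had. DESeq2 also called no member (adjusted p = 0.110 for Junb), where it called 2.11% of 3272 genes. The value rested on library A06. Without A06 the log2 fold change was 0.22 (adjusted p = 0.884), and without A02, the library with 15 Junb reads, it was 2.21 (adjusted p = 0.0131). Junb also passed the threshold in the fit of only the 4 WT libraries (adjusted p = 0.0439) and without pure cancer library A03 or A07 (adjusted p = 0.0434 and 0.0260), neither of which is a WT library. Stem cell markers were lower in mixed WT cells, at 78.6 to 174 CPM summed over 4 genes against 342 to 424 CPM in pure WT cells, with Olfm4 at 0. Paneth cell markers (3 genes) were lower too, at 249 to 410 against 679 to 1470 CPM, as was the sum of the 5 Wnt targets given above. Enterocyte markers (5 genes) overlapped, at 1015 to 1376 CPM in mixed and 637 to 1150 CPM in pure WT libraries. Goblet markers (3 genes) did so too, at 1639 to 3138 against 2043 to 2162 CPM. Enteroendocrine markers (3 genes) were at 144 to 150 against 153 to 210 CPM. The part of these genes in the Junb values was not tested.

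Cancer cells upon mixing had a Junb log2 fold change of 0.08 (95% interval -1.01 to 1.16, edgeR adjusted p = 1). No member was called, as no gene was (0% of 5264), and 0 members against 1.31% of all genes had an unadjusted p under 0.05. DESeq2 called no gene either. The change of Junb upon mixing was 1.58 log2 units higher in WT than in cancer cells (SE 0.750, 95% interval 0.03 to 3.13, edgeR adjusted p = 0.677). Here 0 members were called against 0.0760% of all genes, 1 member against 7.28% had an unadjusted p under 0.05, and DESeq2 called 0 members against 0.763% of 2752 genes. Mixed cancer and mixed WT cells differed in Junb by a log2 fold change of 0.66 (95% interval -0.44 to 1.76, edgeR adjusted p = 0.611). The mixing comparisons and the cancer against WT comparisons share libraries, so their values are not independent of each other.

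**Figure D2:**
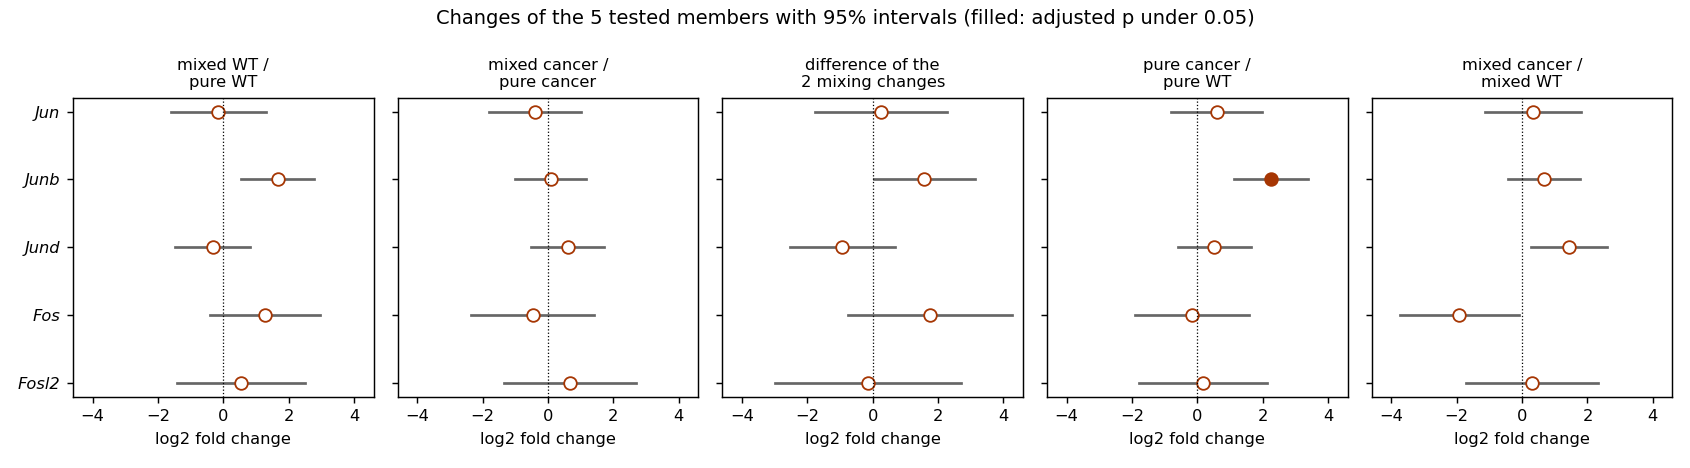
Log2 fold change (point) and 95% interval (line) of the 5 tested members in each of the 5 comparisons from the edgeR fit, with filled points for an adjusted p under 0.05. Junb in pure cancer against pure WT cells, at 2.24, is the single filled point, and the interval of Junb upon mixing of WT cells runs from 0.54 to 2.78 without passing the adjusted threshold.

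**Figure D3:**
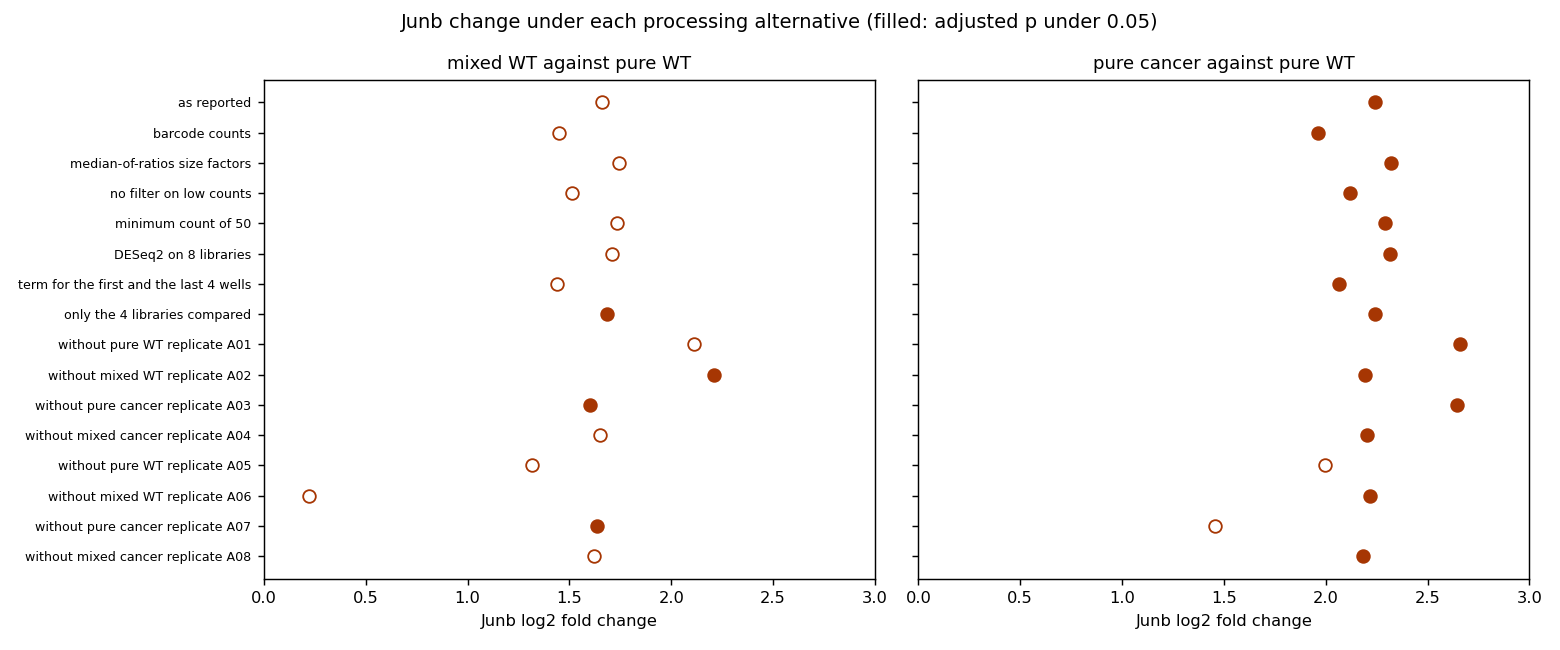
Junb log2 fold change under the reported fit and 15 alternatives (rows) in mixed against pure WT cells (left) and in pure cancer against pure WT cells (right), filled where the adjusted p was under 0.05. The left panel spans 0.22 to 2.21, with its lowest point without library A06, and the right panel spans 1.45 to 2.66, with open points only without A05 and without A07.

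Junb (ENSMUSG00000052837) lies on chromosome 8 from 84974484 to 84978718 in GRCm38, on the minus strand, as 1 exon per transcript. Its annotated range meets the 3′ end of Prdx2, a peroxide-reducing enzyme on the plus strand, and the sources used here do not state whether reads were assigned by strand. Prdx2 was at 373 and 278 CPM in A01 and A05, at 262 and 285 CPM in A02 and A06, and at 326 to 399 CPM in the 4 cancer libraries. Its log2 fold change was 0.09 in pure cancer against pure WT (edgeR adjusted p = 0.946) and -0.24 in mixed against pure WT cells (adjusted p = 0.926), and it was called in no comparison. No 50-base window near the 3′ transcript ends of Junb was shared in the same direction with another gene. The same held for the other members except Mapk8, which shared 2 of 3676 windows with Ttc13. Windows were compared only in the sense direction of each transcript, so this search could not find the overlap with Prdx2 on the other strand.

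Jun, the partner that JNK phosphorylates, showed no change that passed the test. Its level was 66.8 and 126 CPM in pure WT libraries A01 and A05. In mixed WT cells it was 0 in A02 (0 reads, floor 39.3 CPM) and 136 CPM in A06. Among cancer cells it was 147 and 144 CPM when pure and 146 and 62.2 CPM when mixed. Among the groups compared, pure WT and pure cancer cells did not overlap, and they differed by a log2 fold change of 0.59 (95% interval -0.82 to 1.99, edgeR adjusted p = 0.705). Upon mixing, the log2 fold change was -0.15 in WT (95% interval -1.60 to 1.29) and -0.40 in cancer cells (-1.82 to 1.02). These intervals leave room for changes of more than 2-fold in either direction in the WT comparison.

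Jund, the subunit that is known to be made constitutively in most cells, was at 169 and 232 CPM in pure WT libraries. It was at 39.3 CPM in A02 (3 reads) and 240 CPM in A06 among mixed WT cells. Pure cancer libraries had 199 and 368 CPM and mixed cancer libraries 365 and 514 CPM. Both mixed cancer libraries thus lay above both mixed WT libraries, with a log2 fold change of 1.44 (SE 0.565, 95% interval 0.27 to 2.60) that did not pass the adjusted threshold (edgeR adjusted p = 0.163). In that comparison 0 members were called against 6.42% of all genes, 2 members against 16.4% had an unadjusted p under 0.05, and DESeq2 called 0 members against 4.52% of 7174 genes. Jund passed the threshold without library A06 (log2 fold change 3.53, adjusted p = 0.0138), where A02 alone stood for mixed WT cells with its 3 Jund reads and the spread was taken from the other groups, and with a term for wells A01 to A04 against A05 to A08 (1.65, adjusted p = 0.0131). Its other changes were 0.51 in pure cancer against pure WT, -0.32 in WT and 0.60 in cancer cells upon mixing, with adjusted p from 0.669 to 1.

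Because Junb moved and Jun and Jund did not pass a test, the Junb share of reads on the 3 Jun genes was computed, a measure chosen after the values were seen and given without a test. The share was 46.3% in A01 (95% Wilson interval 41.8 to 50.7) and 24.4% in A05 (21.6 to 27.4) for pure WT cells. It was 83.3% in A02 (60.8 to 94.2, from 18 reads) and 66.9% in A06 (62.6 to 70.8) for mixed WT cells. The 18 reads of A02 held only 7 Junb, 3 Jund and 0 Jun barcodes. These intervals count amplification copies as separate reads, so they are too narrow for molecules. Pure cancer libraries had 57.4% in A03 and 66.8% in A07, and mixed cancer libraries 57.1% in A04 and 61.3% in A08. Both pure WT libraries were below the other 6, and the mixed WT libraries lay in or above the range of the cancer libraries. By molecule barcodes the pure WT libraries had 37.3% and 27.0%, the mixed WT libraries 70.0% and 54.8%, and the cancer libraries from 39.2% to 56.6%. The lowest of these, 39.2%, was in A04, where Junb had 248 and Jund 237 barcodes of the 256 possible, so both were near the limit. The barcode share was also below the read share in A06 and A07, with 103 and 90 Junb barcodes, and above it in A05. The part of the limit in the A04 value was not tested. Since the ratio is taken within a library, it does not depend on library scaling.

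**Figure D4:**
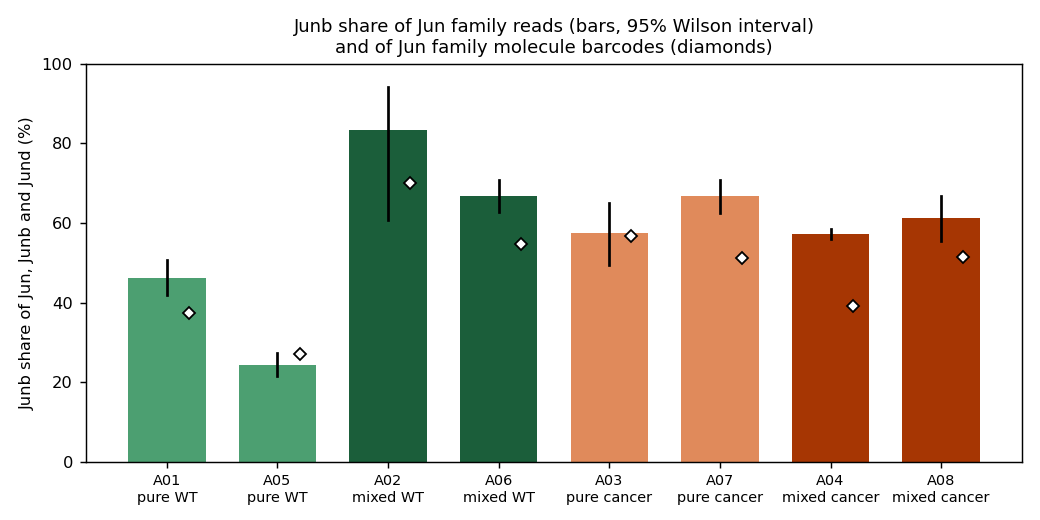
Junb share of reads on Jun, Junb and Jund in each library (bars from 0, percent, colored by group) with 95% Wilson intervals as lines and the share of molecule barcodes as diamonds. Pure WT bars stand at 46.3% and 24.4% and the other 6 bars between 57.1% and 83.3%.

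Fos, the classical partner of Jun in AP-1, showed no change that passed the test. Its level was 12.8 and 62.4 CPM in A01 and A05, and 52.4 CPM (4 reads) and 118 CPM in A02 and A06. Pure cancer libraries had 5.25 CPM (1 read) and 56.9 CPM, and mixed cancer libraries 21.3 and 31.1 CPM. Both mixed WT libraries lay above both mixed cancer libraries, with a log2 fold change of -1.92 for cancer against WT (95% interval -3.73 to -0.10, edgeR adjusted p = 0.264). The change upon mixing of WT cells was 1.28 (95% interval -0.40 to 2.95, adjusted p = 0.670), and that in pure cancer against pure WT cells was -0.17 (adjusted p = 0.948).

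Fosl2, which encodes the Fos family member Fra-2, was at 18.3 and 34.3 CPM in A01 and A05, and at 0 and 56.6 CPM in A02 and A06. Among cancer cells it was at 0 and 53.9 CPM when pure and at 38.2 and 62.2 CPM when mixed. The zeros are in A02 and A03, the libraries with floors of 39.3 and 15.7 CPM. All group ranges overlapped except those of pure WT and mixed cancer cells, which were not compared. Log2 fold changes ran from -0.13 to 0.67 over the 5 comparisons, with adjusted p from 0.918 to 1.

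The other Fos genes were at the limit of detection. Fosb had 6 reads in pure WT library A05, 9 in A04, 1 each in the cancer libraries A07 and A08, and none in the other 4. Fosl1, which encodes Fra-1, had 3 reads in A04, the deepest library, and none in the other 7. Levels of either gene could not be compared at this depth.

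Atf3, a stress-induced AP-1 partner, was at 3.66 and 0.562 CPM in A01 and A05 (4 and 1 reads) and at 0 and 4.53 CPM in A02 and A06 (0 and 2 reads). Among cancer cells it was at 15.7 and 18.0 CPM when pure (3 and 6 reads) and at 22.9 and 10.4 CPM when mixed (117 and 2 reads). All 4 cancer libraries were above the WT libraries as listed, although the count of 0 in A02 allows up to 39.3 CPM, which is above every cancer level. Pooled reads gave 9.85 times more Atf3 in pure cancer than in pure WT cells (95% counting interval 2.97 to 37.4, from 9 and 5 reads) and 5.81 times more in mixed cancer than in mixed WT cells (1.57 to 48.5, from 119 and 2 reads). These intervals leave out the spread between libraries. In a fit without the filter on low counts, the pure cancer against pure WT comparison gave a log2 fold change of 2.97 (SE 1.28) that did not pass adjustment (edgeR adjusted p = 0.231).

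Mapk8, which encodes JNK1, had 8 reads in A01, 11 in A05 and none in either mixed WT library. The pure WT level was 7.32 and 6.18 CPM, against a floor of 5.80 CPM over both mixed WT libraries, and the counting interval of the ratio reaches up to 1.19, so a loss was not detectable at this depth. Cancer libraries had 0 and 4 reads when pure and 55 and 0 when mixed, the 55 reads in A04 being 10.8 CPM. The pure cancer to pure WT ratio was 1.15 (95% counting interval 0.285 to 3.47). Without the filter on low counts Mapk8 had adjusted p from 0.514 to 1 in the 5 comparisons.

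Dusp10, the phosphatase of JNK and p38, had 1 and 4 reads in A01 and A05, and 0 and 6 in A02 and A06. The pooled ratio of mixed to pure WT was 6.66 (95% counting interval 1.69 to 27.6), and all 6 reads of mixed WT cells came from A06. Cancer libraries had 0 and 2 reads when pure and 47 and 0 when mixed. Without the filter the WT change had a log2 fold change of 2.39 (SE 1.53, edgeR adjusted p = 0.841).

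Together the 10 genes took 0.0478% and 0.0543% of the reads of A01 and A05, and 0.0301% and 0.114% of those of A02 and A06. For cancer cells the share was 0.0757% and 0.169% when pure and 0.140% and 0.153% when mixed. Every cancer library was above both pure WT libraries, and of the mixed WT libraries A02 was below and A06 above them. Junb made up 222 of 527 member reads in A01 and 3477 of 6621 in A04, so the sum follows Junb to a large part.

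The members did not vary as one set over the 8 libraries. Log2 CPM of Jun and Jund had a Pearson r of 0.85, and that of Jund and Fosl2 0.77, whereas Fos had r of -0.16 with Jun, 0.06 with Junb and -0.04 with Jund (8 libraries, a description across libraries that share depth). The genes most like each member over the same libraries were Trappc1 (r = 0.995) and Fam192a (0.991) for Jun, Ptpn12 (0.992) and Stom (0.976) for Junb, and Rac1 (0.998) and Stk24 (0.997) for Jund. For Fos they were Zfp622 (0.964) and Prkra (0.937), and for Fosl2 Rara (0.995) and Dopey2 (0.992). With 5264 genes and 8 libraries such values are the highest of many and are given as a description.

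Related genes were read from 7 lists beside the members. Of 5 tested other AP-1 dimer partners, Maff, a small Maf protein without an activation domain, was called in pure cancer against pure WT cells. It was at 79.6 and 23.0 CPM in pure WT and at 231 and 377 CPM in pure cancer libraries, so that groups did not overlap (log2 fold change 2.59, SE 0.586, edgeR adjusted p = 0.00425). This call was lost without A05 (2.04, adjusted p = 0.100), and the value was 3.67 without A01. It was 1 call among 5 genes, where 9.95% of all genes were called. In mixed WT libraries Maff was at 78.6 and 150 CPM, a log2 fold change of 1.28 upon mixing (adjusted p = 0.493). Atf4, the stress-response activator with the highest mean level of this list, was at 121 to 419 CPM in all 8 libraries and was called nowhere.

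No gene of the kinase cascade itself was called. Of 29 listed JNK genes and upstream kinases 6 could be tested, and of 20 scaffolds and adaptors 10, and none passed the threshold in any of the 5 comparisons with edgeR or DESeq2. At an unadjusted p under 0.05, 1 kinase was higher in mixed WT cells, and no other gene of either list passed in any comparison. The share of all genes called was between 0% and 9.95% in the 5 comparisons, and 9.67% of all genes had an unadjusted p under 0.05 upon mixing of WT cells, so counts this small over 6 and 10 genes do not set the lists apart. That kinase was Map3k1, an upstream MAP3K of JNK, with 13.7 and 6.18 CPM in pure WT and 52.4 and 31.7 CPM in mixed WT libraries (log2 fold change 1.97, edgeR adjusted p = 0.473), where A02 gave 4 reads. Map2k7, a direct activator of JNK, was at 46.7 and 34.8 CPM in A01 and A05, at 0 and 34.0 CPM in A02 and A06, and at 15.7 to 83.8 CPM in the cancer libraries. The small GTPases Cdc42 and Rac1, which act upstream of the cascade, were at 275 to 688 CPM and 91.8 to 379 CPM over all libraries. The median log2 fold change of the 6 kinases was -0.13 upon mixing of WT cells and 0.61 in pure cancer against pure WT cells, beside -0.10 and -0.05 over all tested genes.

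Among 8 tested MAPK phosphatases 1 was called in pure cancer against pure WT cells, where 9.95% of all genes were. This was Dusp4, which removes phosphates from ERK and JNK in the nucleus. It was at 8.24 and 2.25 CPM in A01 and A05, at 0 and 40.8 CPM in A02 and A06, and at 52.5 to 80.8 CPM in the 4 cancer libraries. Dusp4 passed the filter on low counts only through the cancer libraries. Pure cancer cells had 13.5-fold more than pure WT cells (log2 fold change 3.75, SE 0.873, edgeR adjusted p = 0.00549), a call lost without A05 (3.11, adjusted p = 0.135) and a value of 4.79 without A01. Upon mixing of WT cells it had a log2 fold change of 2.53 (adjusted p = 0.298). Dusp6, the ERK phosphatase, was at 0 to 113 CPM and Ppm1a at 10.5 to 80.8 CPM, and neither was called. Of 13 ERK and p38 kinases 1, beside the same 9.95%, was called. Mapk13, which encodes p38 delta, fell in pure cancer against pure WT cells, from 153 and 191 CPM to 31.5 and 50.9 CPM (log2 fold change -2.02, SE 0.589, edgeR adjusted p = 0.0279). Leaving out any of the 4 libraries compared ended this call, with adjusted p of 0.0890 without A01, 0.153 without A03, 0.318 without A05 and 0.0719 without A07. Map2k3 and Map2k2, which activate p38 and ERK, ranged over 93.4 to 442 CPM and 114 to 415 CPM and were called nowhere.

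Of the other immediate-early genes, 1 rose in WT cells upon mixing. Ier3, an early gene known to modulate cell death, was at 31.1 and 3.93 CPM in pure WT and at 52.4 and 193 CPM in mixed WT libraries, and it was called (8.28-fold, log2 fold change 3.05, SE 0.711, edgeR adjusted p = 0.0399). The call was lost without A05 (2.15, adjusted p = 0.437) and without A06 (1.57, adjusted p = 0.493). It was the 1 gene called of 21 tested, where 0.741% of all genes were, and 5 of the 21 had an unadjusted p under 0.05, all with a higher level in mixed cells. Over all tested genes 9.67% had an unadjusted p under 0.05, 263 of them higher and 246 lower. The list median log2 fold change was 0.45, with 66.7% of its genes positive, beside -0.10 and 44.8% over all tested genes. Ctgf and Klf6 had log2 fold changes of 3.22 and 2.93, with edgeR adjusted p of 0.148 and 0.129. Each had 1 read in A02 (13.1 CPM, under the floor of 39.3 CPM there). In A06 they were at 34.0 and 111 CPM, so both values rested on A06.

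In pure cancer against pure WT cells 6 of the 21 immediate-early genes were called, all higher, where 9.95% of all genes were called. Ctgf, Klf6, Gadd45g and Hspa1b passed the filter on low counts only through the cancer libraries, where they are high. Ier3 was at 273 and 428 CPM in the cancer libraries (log2 fold change 4.40, adjusted p = 0.000191), a value of 6.40 without A01 and of 3.59 without A05. Ctgf, a secreted matricellular protein and known target of YAP, was at 4.58 and 1.69 CPM in pure WT and 47.2 and 192 CPM in pure cancer libraries (5.34, adjusted p = 0.000232), with 6.05 without A01, 5.95 without A03 and 3.88 without A07. Zfp36l1, an mRNA decay factor, was at 77.8 and 158 against 341 and 644 CPM (2.06, adjusted p = 0.0185), and Klf6, a zinc finger factor, at 5.49 and 13.5 against 36.7 and 98.8 CPM (2.82, adjusted p = 0.0315). Both calls were lost without A01 (adjusted p = 0.188 and 0.203) and without A07 (0.150 and 0.351). Gadd45g, a growth arrest gene, rose by 3.48 log2 units (adjusted p = 0.0180), a call lost without A03 (adjusted p = 0.0668) and A05 (0.351). Hspa1b, which encodes a heat shock protein, rose by 3.08 (adjusted p = 0.0100) but has a near-identical copy, Hspa1a, so its reads are uncertain. Its call was lost without A01, A05 and A07 (adjusted p = 0.0812, 0.129 and 0.181).

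**Figure D5:**
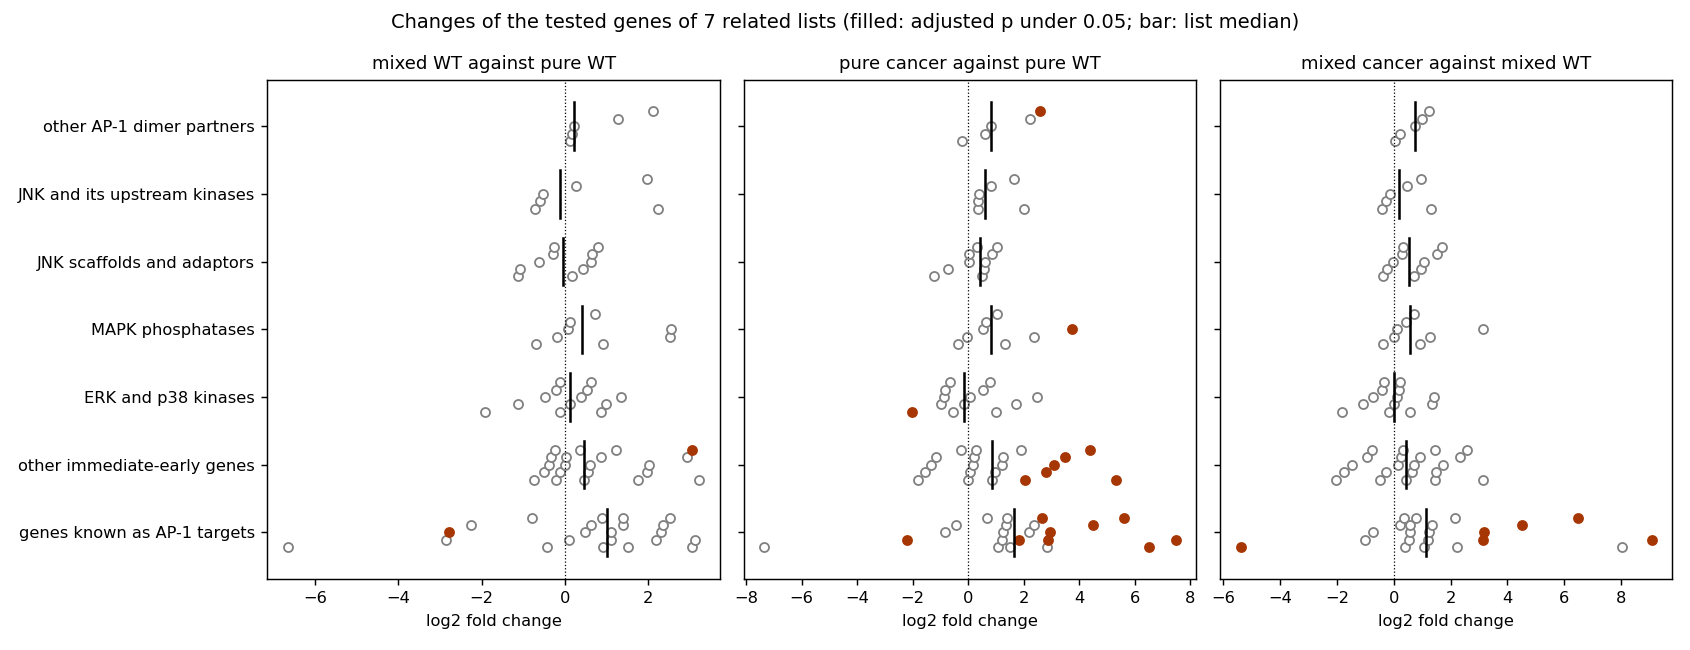
Log2 fold change of each tested gene of the 7 lists (rows) in 3 comparisons (panels), with filled points for an edgeR adjusted p under 0.05 and vertical bars at the list median. In mixed against pure WT cells 2 points are filled, Ier3 at 3.05 and Mt2 at -2.79, and the JNK kinases and scaffolds have no filled point in any panel. Points beyond about 6 in size belong to genes with few or no reads in a group, whose fitted value depends on the default prior count of the fit.

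Genes known as AP-1 targets were counted in the same way, from 22 tested of 40 listed. Upon mixing of WT cells Mt2, a metal-binding metallothionein, fell from 516 and 474 CPM to 91.8 and 61.2 CPM (log2 fold change -2.79, SE 0.598, edgeR adjusted p = 0.0284), a call lost without A05 (adjusted p = 0.0686) and A06 (0.184). Its neighbor Mt1 had 1436 and 1079 CPM in pure and 288 and 242 CPM in mixed WT cells, just outside the threshold (-2.26, adjusted p = 0.0507). With edgeR no target was called higher, and 6 against 3 had an unadjusted p under 0.05 in the higher and lower direction. DESeq2 called 3 genes of the list, counted here without their direction. Over all genes 0.741% were called, 263 against 246 (9.67% in all) had an unadjusted p under 0.05 in the higher and lower direction, and DESeq2 called 2.11%. The list median was 1.01, with 72.7% of its genes positive, beside -0.10 and 44.8% over all tested genes. It was 1.10 over 21 genes once 1 gene without reads in mixed WT cells was set to its floor and 1 under the floor in both groups was left out.

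In pure cancer against pure WT cells 8 of the 22 targets rose and 1, Mt2, fell, where 9.95% of all genes were called, 269 of them higher and 255 lower. Mt2 had a log2 fold change of -2.21 (adjusted p = 0.0102), with -3.25 without A03, and was not called without A07 (adjusted p = 0.138). Spp1, the secreted protein osteopontin, had 4 and 0 reads in pure WT cells and was at 362 and 210 CPM in pure cancer libraries. Fn1, the matrix protein fibronectin, had 1 and 2 reads in pure WT cells and was at 42.0 and 165 CPM in pure cancer libraries. Timp1, an inhibitor of matrix metalloproteinases, had 0 and 2 reads in pure WT cells and 42.0 and 35.9 CPM in pure cancer libraries. Spp1, Fn1 and Timp1 passed the filter on low counts only through the cancer libraries, where they are high. Their calls, and their part in the count of 8, therefore depend on that group. Adjusted p were 2.2e-06, 0.000125 and 0.00156 for Spp1, Fn1 and Timp1, and all 3 calls held with any library left out. Mmp7, a metalloproteinase that is also a Paneth cell marker, was 6.39-fold higher (adjusted p = 0.000595) and the lectin Lgals3 7.78-fold (adjusted p = 0.00331), and both calls held with any library left out. The log2 fold change of Lgals3, 2.96, was 4.86 without A01 and 2.20 without A05.

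In mixed cancer against mixed WT cells 5 of the 22 targets were higher and 1 was lower, where 6.42% of all genes were called, 106 of them higher and 232 lower. Spp1 was at 324 and 425 CPM against 1 read in each mixed WT library (adjusted p = 7.4e-05), and Mmp7 at 523 and 861 against 78.6 and 74.8 CPM (9.02-fold, adjusted p = 0.000362). Fn1 (adjusted p = 0.0106) and Timp1 (0.00955) were also called. Here too Spp1, Fn1 and Timp1 had entered the test only through the cancer libraries, and Areg, given below, only through the WT libraries. Fn1 was lost without A06 (adjusted p = 0.0922) and A08 (0.0847), and Timp1 without A04 (0.101) and A06 (0.188). Areg, an EGF receptor ligand, was the gene that fell, from 131 and 159 CPM in mixed WT to 3.91 and 0 CPM in mixed cancer libraries (-5.39, adjusted p = 0.00219), a value of -9.45 without A04, which leaves A08 with no Areg read. Areg was at 32.9 and 3.37 CPM in pure WT libraries, a log2 fold change of 3.06 upon mixing of WT cells that did not pass adjustment (adjusted p = 0.147).

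Krt18, a simple epithelial keratin and the target with the highest mean level, was at 661 and 802 CPM in A01 and A05, at 590 and 2123 CPM in A02 and A06, and at 1302 to 2319 CPM in the cancer libraries. As for Junb, mixed WT library A06 lay among the cancer libraries and A02 did not. Krt18 was called in no comparison.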

How the data were processed

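WT and cancer cells sorted from pure and from mixed cultures were sequenced with CEL-Seq, with 2 libraries per group. The second read of each pair was mapped with BWA to RefSeq transcripts of mm10, ambiguous reads were dropped, and genes were quantified with featureCounts by the authors. The authors deposited read counts per gene and barcode counts (different random molecule barcodes, at most 256 per gene), both without normalization. Their transcript estimates were not used. Neither was their DESeq2 1.22.2 table of mixed against pure WT cells, which holds mean counts, fold changes, Wald statistics and p-values. The 2 entries that are not mouse genes held 1 read and were left out.

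Read counts of all 8 libraries entered a single edgeR 4.0.16 quasi-likelihood fit (R 4.3.3) with TMM factors and filterByExpr at a minimum count of 10. SE is the absolute log2 fold change over the square root of F. Genes were called at a Benjamini-Hochberg adjusted p under 0.05 over 5264 tested genes. Where a library was left out, the other library of its group was assumed to vary like the other groups. DESeq2 1.42.0, barcode counts and the other alternatives are given at the end. Log2 CPM for the correlations used a prior count of 2, while the edgeR fits kept their own default prior count. Depth was 73109 to 4733121 reads per library. The 10 members and the 7 lists, written by hand, were chosen with earlier results of these data known. Named beside the members were list genes called in a comparison (at most 6 per list and comparison, by smallest p), the 2 tested genes of each list with the highest mean CPM, and the 2 genes most correlated with each member of at least 20 mean reads. One allele of the cancer cells and the values of 1 list gene that this rule names are not reported here. Other names (Prdx2, Ttc13, Map3k1 as a kinase past an unadjusted p) and the Junb share were chosen after values were seen. Positions and the 50-base windows of the last 500 bases of transcripts came from GENCODE vM21 (GRCm38).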

Additional observations from a re-analysis of the deposited data

How the results depend on the processing

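Junb in pure cancer against pure WT cells kept its call in 13 of 15 alternatives. Members called there ranged from 0 to 1 over the fits without 1 library. In mixed against pure WT cells 1 member (Junb) was called with only the 4 libraries compared, and 0 to 1 without 1 library. In mixed cancer against mixed WT cells 1 (Jund) was called with a term for the first against the last 4 wells, and 0 to 1 without 1 library. Over all genes, calls ran from 2 to 119 against 39 upon mixing of WT cells, 1 to 32 against 4 for the difference, 232 to 745 against 524 in pure and 151 to 506 against 338 in mixed cancer against WT cells.

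None of the sign changes that follow concerned a called value. With barcode counts Jund was at 0.17 upon mixing of WT cells, Junb at -0.50 and Jund at -0.15 upon mixing of cancer cells, Jund at 0.32 and Fosl2 at 0.10 in the difference, and Fos at 0.069 in pure cancer against pure WT cells. Barcode counts level off at 256 and Junb in A04 reached 248. With the term for wells, Fos was at 0.25 upon mixing of cancer cells and Fosl2 at -0.24 in pure cancer against pure WT cells. The share of barcodes on the 10 members was 0.0806% (A01), 0.0979% (A05), 0.156% (A06), 0.113% (A03), 0.188% (A07) and 0.132% (A04).

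Without 1 library, log2 fold changes of members that were not called changed sign. Upon mixing of WT cells these ranges were -9.95 to 0.45 for Jun, -2.44 to 0.22 for Jund, -8.09 to 1.05 for Fosl2. Upon mixing of cancer cells these ranges were -0.38 to 0.82 for Junb, -0.19 to 8.87 for Fosl2, -1.22 to 2.26 for Fos, -1.20 to 0.079 for Jun. In the difference these ranges were -9.56 to 1.03 for Jun, -8.74 to 0.71 for Fosl2, -0.99 to 3.26 for Fos. In pure cancer against pure WT cells these ranges were -8.08 to 0.97 for Fosl2, -2.93 to 1.50 for Fos, -0.10 to 0.86 for Jund. In mixed cancer against mixed WT cells these ranges were -0.49 to 10.11 for Jun, -0.27 to 8.90 for Fosl2.

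Values beyond about 8 arose where the library left in a group had 0 reads of the gene. No label ties wells to a shared culture, so no pairs were formed. The nearest fit, the term for wells, gave 119 calls over all genes upon mixing of WT cells. Depth limits the mixed WT comparisons most, since A02 has 73109 reads.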
